A study of Mus musculus with 4 samples.

Results

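Genes that set or carry out mitochondrial cell death were followed in the mouse pontine nucleus, a group of relay neurons in the ventral pons that links the cerebral cortex to the cerebellum. The set was fixed by name and held 9 genes: the anti-apoptotic Bcl2, Bcl2l1 and Mcl1, the pore-forming Bax and Bak1, the BH3-only genes Bid and Bbc3, and the apoptosome genes Casp9 and Apaf1. A probe set carrying 1 gene symbol was found for 8 of the 9, among 19938 genes named in this way, and each of the 8 had a single such probe set. Bax is not analysed here. The nucleus was dissected from ICR mice, and RNA was prepared from a pool of 27 mice of embryonic day 17.5 (E17.5) and from pools of 16, 13 and 12 mice on postnatal day 1 (P1), 5 (P5) and 14 (P14). Each pool was hybridised to 1 Affymetrix array. No treatment or mutation was named for any pool. With 1 array per age there were no replicates, so no test was possible and every comparison below is one of size between single arrays.

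In the mitochondrial pathway, BCL-2, BCL-XL (the product of Bcl2l1) and MCL-1 hold the pore-forming proteins BAX and BAK in check. BH3-only proteins such as BID and PUMA (the product of Bbc3) respond to stress or lost trophic support and tip this balance. Opened pores release cytochrome c, which joins APAF-1 and caspase-9 in the apoptosome, and executioner caspases follow. Developing neurons are known to use this pathway when surplus cells are removed, and to restrain it as they mature.

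Bid and Apaf1 had the widest ranges among the 8 measured genes, so their promoter windows are shown, with matches to the GC box GGGCGG in capitals. The RefSeq windows (build GRCm38.p6) run from 250 bases before the transcript start to 50 after it. The Bid window is chr6:120916775-120917074 and the Apaf1 window is chr10:91082694-91082993, both on the minus strand and written 5′ to 3′.
Bid: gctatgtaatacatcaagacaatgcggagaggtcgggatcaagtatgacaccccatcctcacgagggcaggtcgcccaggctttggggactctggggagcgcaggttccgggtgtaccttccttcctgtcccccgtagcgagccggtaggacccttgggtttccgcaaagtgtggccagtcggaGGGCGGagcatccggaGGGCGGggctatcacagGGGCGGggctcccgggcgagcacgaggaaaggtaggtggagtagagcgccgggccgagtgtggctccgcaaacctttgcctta
Apaf1: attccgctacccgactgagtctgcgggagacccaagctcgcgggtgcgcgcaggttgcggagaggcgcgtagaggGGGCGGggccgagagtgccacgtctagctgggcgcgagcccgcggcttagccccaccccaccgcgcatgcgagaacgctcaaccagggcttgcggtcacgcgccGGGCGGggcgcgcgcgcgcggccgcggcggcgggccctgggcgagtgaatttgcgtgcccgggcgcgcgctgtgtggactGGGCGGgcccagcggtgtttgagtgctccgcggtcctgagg
Both windows held 3 GC boxes on the printed strand, which in Bid began 66, 50 and 33 bases before the start. The Apaf1 window was the richer in CpG dinucleotides, with 46 against 22 for Bid. A GC box on either strand was found in 35.7% of 32851 promoter windows of the same length, and in at least 1 listed window of 6 of the 8 measured genes, including Casp9 and Bcl2, whose ranges were narrower. Bcl2l1 and Bbc3 had 3 listed windows each, so this count by gene cannot be set directly against the share of windows. The E2F words TTTCCCGC, TTTCGCGC, TTTGCCGC and TTTGGCGC, searched on both strands, were in neither printed window and in 2.26% of all windows. Of the 8 measured genes 1, Bcl2l1, had a match to such a word. The p53 half-site was searched on both strands as RRRCWWGYYY, with R for A or G, W for A or T and Y for C or T. It was in no listed window of the 8 measured genes, the printed windows included, against 8.36% of all windows. These are matches of letters within 300 bases and not binding sites.

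The arrays did not line up with their labelled ages, which bears on every value from the later pair. Among genes past the level filter (highest array at or above 8.41, the median log2 signal of all single-symbol probe sets), Pearson's r across genes with the P1 array was 0.966 for the array labelled P14 and 0.809 for that labelled P5. Across genes, which are not independent replicates, that places the P5-labelled array farthest out. Myelin genes stood highest there too, as given with the marker lists below, so the last pair of arrays is called by its labels throughout. The comparison of P1 with E17.5 takes its differences from neither. Probe sets that share a gene, of which 645 genes past the filter had several, gave a standard deviation of a single difference between 0.10 and 0.18 on the log2 scale, depending on the pair of arrays; it holds probe noise and not the spread between pools. Pontine identity was checked with Barhl1, a homeobox factor of rhombic lip neurons, which read 12.23 at E17.5, 11.79 at P1, 10.83 on the P5-labelled array and 11.61 on the P14-labelled array. Of 10 markers of pontine and rhombic lip neurons, 9 passed the filter; on the P5-labelled array 7 were lower than at P1, 3 of them at least 2-fold, and 1, the vesicular glutamate transporter Slc17a7, was at least 2-fold higher (3.52), with a median of -0.64.

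All 8 measured genes lay at or above 8.41 on all 4 arrays, so none entered through a single high array. Only Bid spanned a 2-fold range over the arrays, against 19.4% of 10901 genes past the filter. The median range of the 8 genes was 0.47 on the log2 scale, beside 0.53 over all genes past the filter. Without the array labelled P5 the medians were 0.255 and 0.32, and no member spanned 2-fold. On that array 4 of the 8 (Bid, Bbc3, Casp9 and Apaf1) had their lowest value, beside 33.7% of all genes past the filter, and 1 (Bak1) its highest, beside 39.7%. The Bak1 values all lay within the probe-set spread.

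**Figure D1:**
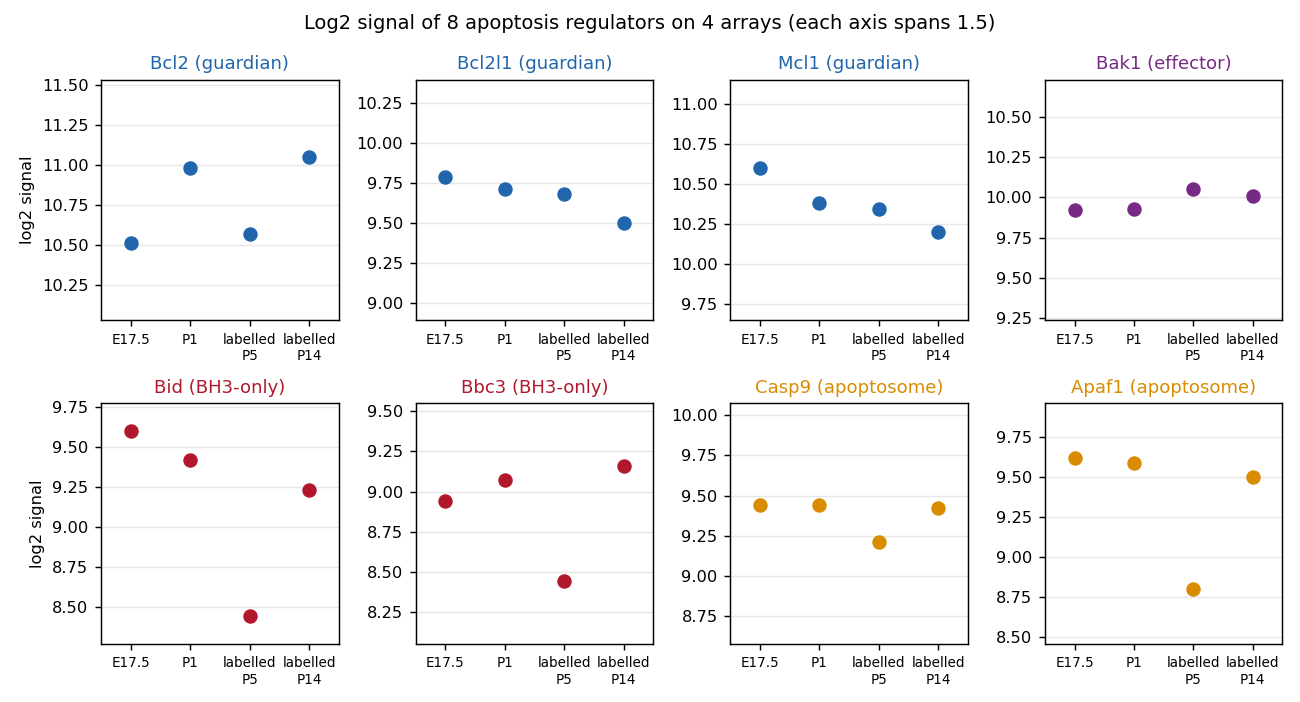
Log2 signal (vertical axes, each spanning 1.5 units) of the 8 measured genes on the 4 arrays (horizontal axes), 1 point per array and no error bars because each age had 1 array. Bid, Bbc3, Casp9 and Apaf1 sit lowest on the array labelled P5, while Bcl2 is high at P1 and labelled P14 and Bak1 is nearly level.

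The anti-apoptotic genes each spanned less than 2-fold, and did not vary in the same way. Bcl2 (probe set 10357043), whose protein guards mitochondria in many neurons, read 10.51 at E17.5, 10.98 at P1, 10.57 on the P5-labelled array and 11.05 on the P14-labelled array. It thus formed a low pair and a high pair that alternated along the labels, with the values of each pair 0.06 and 0.07 apart. The P1 value exceeded that at E17.5 by 0.47 (1.39-fold), or 4.0 times the probe-set standard deviation, the widest difference of any member around birth. Against P1, Bcl2 was 1.33-fold lower on the P5-labelled array (-0.41), 2.33 times the probe-set standard deviation. Without that array its range of 0.54 was the widest of the 8 measured genes, beside a median of 0.32 over all genes. Mcl1 (probe set 10494306), a short-lived guardian needed by young neurons, read 10.60, 10.38, 10.34 and 10.20 in the same order of labels. Its E17.5 value was the highest and its P14-labelled value the lowest, 0.40 apart (1.32-fold). The neighbouring values of P1 and labelled P5 differed by less than the probe-set spread. Bcl2l1 (probe set 10488655), which encodes BCL-XL, the guardian that many mature neurons rely on, read 9.79, 9.71, 9.68 and 9.50. Its whole range was 0.29 (1.22-fold), and among its neighbouring values only the step to the P14-labelled array exceeded the probe-set spread of its pair.

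Bak1 (probe set 10449303), the pore-forming gene that could be measured, was the most level member. It read 9.92 at E17.5, 9.93 at P1, 10.05 on the P5-labelled array and 10.01 on the P14-labelled array. The range of 0.13 on the log2 scale (1.09-fold) lay within the probe-set spread, so these 4 values could not be ordered. The probe set measures the gene as a whole and does not separate splice forms.

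The BH3-only genes both stood lowest on the array labelled P5. Bid (probe set 10547531), which carries death signals from caspase-8 to mitochondria, read 9.60 at E17.5, 9.42 at P1, 8.44 on the P5-labelled array and 9.23 on the P14-labelled array. Its E17.5, P1 and P14-labelled values lay within 0.37 of each other, and the P5-labelled value stood apart below them. Bid was 2.23-fold lower there than at E17.5 (-1.16 on the log2 scale), the only member difference of at least 2-fold in any of the 6 comparisons. Against P1 it was 1.97-fold lower (-0.98), just short of that size, and 5.56 times the probe-set standard deviation. Bbc3 (probe set 10550290), which encodes PUMA, a target of p53 in stressed neurons, read 8.94, 9.07, 8.44 and 9.16. It was 1.55-fold lower on the P5-labelled array than at P1 (-0.63), and the other 3 arrays spanned 0.22. Both genes read 8.44 on the P5-labelled array, close to the filter level of 8.41.

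The apoptosome genes also read lowest on that array, by unequal amounts. Apaf1 (probe set 10371846), the scaffold that recruits caspase-9, read 9.62 at E17.5, 9.59 at P1, 8.80 on the P5-labelled array and 9.50 on the P14-labelled array. It was level within 0.12 on the other 3 arrays and 1.73-fold lower on the P5-labelled array than at P1 (-0.79), 4.49 times the probe-set standard deviation. Casp9 (probe set 10510034), the initiator caspase of the apoptosome, read 9.44, 9.44, 9.21 and 9.42. It was 1.17-fold lower on the P5-labelled array than at P1 (-0.23), 1.31 times the probe-set standard deviation, and spanned 0.02 without that array. In tissue of mixed cells, fewer cells of a type and less RNA per cell cannot be told apart in any of these values.

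By comparison, no member reached a 2-fold difference between E17.5 and P1, where 1.10% of genes past the filter were. The members' median difference there was -0.015, beside -0.06 over all genes. For the array labelled P5 against P1 none of the 8 reached 2-fold, beside 12.9% of all genes. In this pair 7 of 8 members were lower, beside 45.6% of all genes, with a median of -0.32 against 0.05 over all genes. Of the 7, Bcl2l1 (-0.03) and Mcl1 (-0.04) lay far inside the probe-set spread, and with each array centred on its median they read 0.02 and 0.01, which left 5 of 8 lower. Against E17.5, 1 of 8 reached 2-fold on the P5-labelled array, beside 16.8% (5.50% lower and 11.3% higher), with a median of -0.245 against -0.02. The comparisons with the P5-labelled array share it, so they are not separate evidence. Between the P14-labelled array and E17.5 none of 8 reached 2-fold, beside 5.74%, with a median of -0.07 against -0.08. The P14-labelled array against P1 gave none of 8, beside 1.47%, with a median of -0.055 against -0.01. Against the P5-labelled array it gave none of 8, beside 6.66%, with a median of 0.345 against -0.07. The single difference of at least 2-fold in the 6 comparisons was thus that of Bid. At the smaller size of 1.5-fold, 3 of 8 members (Bid, Bbc3 and Apaf1) were apart between the P5-labelled array and P1, beside 30.5% of all genes. The same size was reached by 2 of 8 (Bid and Apaf1) for the P5-labelled array against E17.5, beside 35.3%, and by 3 of 8 (Bid, Bbc3 and Apaf1) between the P5-labelled and P14-labelled arrays, beside 19.6%.

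**Figure D2:**
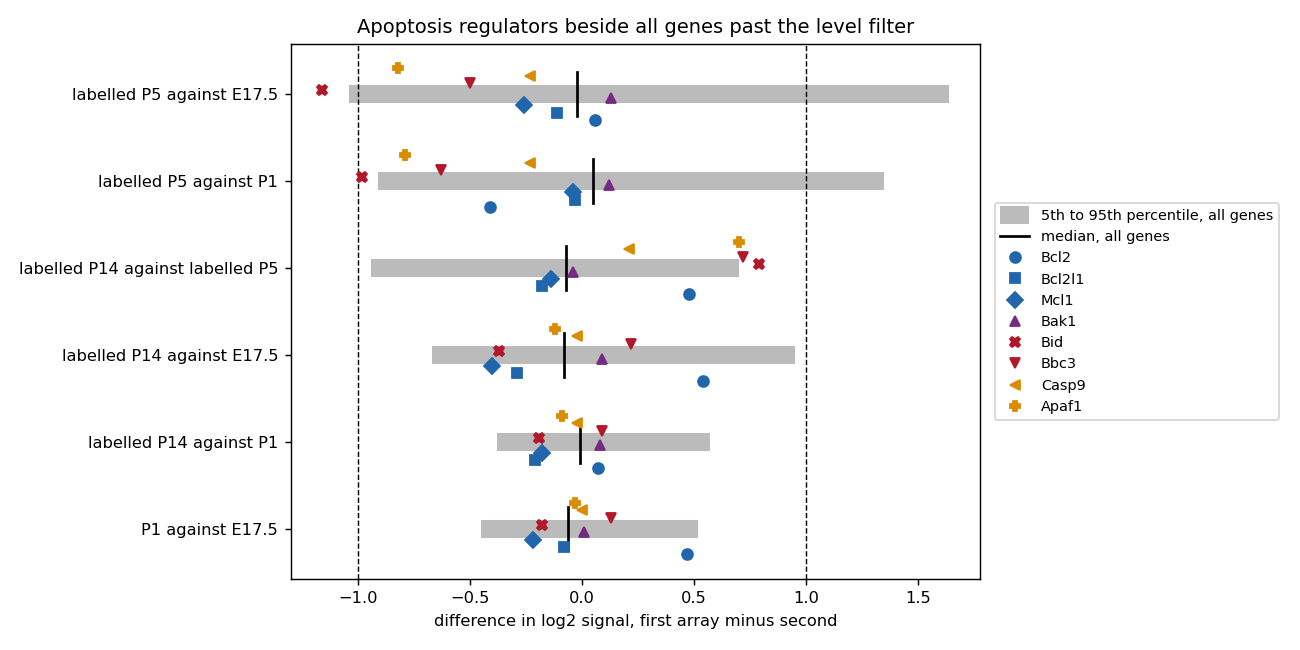
Differences in log2 signal between arrays (horizontal axis) for the 8 genes in 6 comparisons (rows), with the 5th to 95th percentile (grey bar) and the median (black line) of 10901 genes; dashed lines mark 2-fold. Bid at -1.16 for labelled P5 against E17.5 is the only point past a dashed line.

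The P14-labelled value lay strictly between those of P1 and the P5-labelled array for 4 of 8 members (Bak1, Bid, Casp9 and Apaf1), beside 60.5% of all genes past the filter. Bcl2, Bcl2l1, Mcl1 and Bbc3 had their P14-labelled value outside that interval. Bcl2 and Bbc3 read highest on the P14-labelled array and Bcl2l1 and Mcl1 lowest. For Bcl2, Bbc3, Bak1, Casp9 and Apaf1 the P14-labelled and P1 values differed by less than the probe-set standard deviation. The P14-labelled and P5-labelled values of Mcl1 did so too. The placing of these genes thus lies within probe noise, and the split of the members is not a result.

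Cell type markers moved on the same array as Bid, Bbc3 and Apaf1. All 10 immature neuron markers were lower on the P5-labelled array than at P1, 9 of them at least 2-fold, and their summed linear signal was 73156 at E17.5, 64226 at P1, 17519 on the P5-labelled array and 46332 on the P14-labelled array. Of 10 myelin markers 9 were measured, all at least 2-fold higher on the P5-labelled array than at P1, with sums of 2422, 3856, 62085 and 8475. Markers shared by all neurons summed to 63115, 61184, 64910 and 68366 over 9 genes, which went both ways. On the P5-labelled array 2 were at least 2-fold higher than at P1 and 1 at least 2-fold lower. On the log2 scale these were Snap25 at 1.25, Nefl at 1.30 and Tubb3 at -1.21. Cell cycle genes, 7 of 8 measured, were all lower on the P5-labelled array than at P1 and none by 2-fold, with sums of 5265, 4991, 3391 and 4691. Astrocyte markers (10 genes) summed to 11082, 19784, 39960 and 30320, and microglial markers (11 genes) to 3189, 4530, 7294 and 6420. No marker of these 6 lists lay under the lower quartile of every array, which 1 high array is enough to ensure. Among the myelin markers, Mog, Mal, Ermn and Opalin passed the filter through the P5-labelled array alone. So did Gjb6 of the astrocyte list and Itgam of the microglial list. That these genes read higher there was partly fixed by the filter, and the sizes of their differences are inexact. The part of these 6 lists in the members' differences was not tested.

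**Figure D3:**
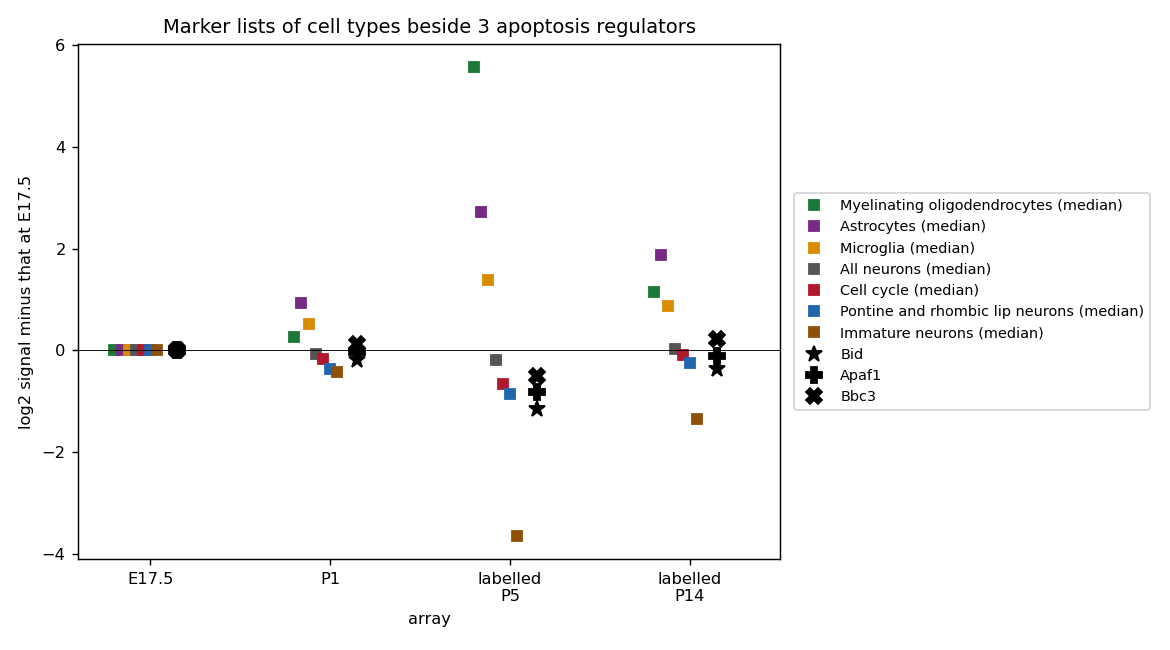
Log2 signal minus that at E17.5 (vertical axis) on the 4 arrays (horizontal axis) for the median of 7 marker lists (squares) and for Bid, Apaf1 and Bbc3 (black symbols). On the array labelled P5, Bid, Apaf1 and Bbc3 lie at -1.16, -0.82 and -0.50. The part of any list in these values was not tested. Single genes spread about the median of their list: those of the immature neuron list run from -1.16 (Stmn1) to -4.29 (Cd24a).

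Genes with a profile most like that of Bid were found by the root mean square difference between log2 profiles, each centred on its own mean over the 4 arrays. The nearest were Nasp, a histone chaperone, at 0.017, Plxnb2, a semaphorin receptor, at 0.019, and Sh3kbp1, an adaptor protein, at 0.024. The median over all genes past the filter was 0.47. Nasp read 9.32 at E17.5, 9.18 at P1, 8.16 on the P5-labelled array and 8.97 on the P14-labelled array. A likeness over 4 arrays is a description and rests largely on the P5-labelled value.

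Among 91 other genes of the pathway, in 12 lists, 81 were measured and 50 passed the filter. From E17.5 to P1 none of the 50 reached a 2-fold difference, beside only 1.10% of all genes. On the P5-labelled array 4 of 50 were at least 2-fold higher than at P1, beside 8.96% of all genes, and none was at least 2-fold lower, beside 3.94%. Their median difference in that pair was 0.265, beside 0.05 over all genes, whereas that of the 8 members was -0.32. The 4 higher genes, with differences on the log2 scale, were Itgb5, an integrin used in engulfment (1.90), and the stress transcription factor Jun (1.31). The others were Foxo1, a transcription factor restrained by AKT (1.17), and the JNK kinase Mapk9 (1.04). Foxo1 passed the filter through the P5-labelled array alone, reading 7.52 at P1, so the size of its difference is inexact.

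Relatives of the members went both ways on the P5-labelled array. Bcl2l2, the guardian BCL-W of mature neurons, read 8.63 at E17.5, 8.55 at P1, 9.21 on the P5-labelled array and 8.57 on the P14-labelled array. It stood highest on the array where Bid, Bbc3 and Apaf1 stood lowest. Of 6 other BH3-only genes 3 passed the filter, and 2 of these, Bmf (0.60) and Hrk (0.34), were higher on the P5-labelled array than at P1, while Bad read 8.42 and 8.38. Bcl2l11, which encodes BIM, the BH3-only protein of neurons deprived of trophic factors, read 8.26, 7.34, 7.80 and 7.43 and was below the filter on all 4 arrays. Bok, a relative of BAX and BAK, read 9.66, 9.65, 9.27 and 9.83.

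The mitochondrial death factors, which leave the organelle once its pores open, lay above their P1 value on the P5-labelled array in all 4 genes past the filter, beside 53.7% of all genes. None of the 4 reached 2-fold, and their median difference was 0.47. Cytochrome c, Cycs, read 12.28, 12.29, 12.96 and 12.53; its 3 probe sets differed in size (0.67 to 1.18) though not in direction, and copies of this gene elsewhere in the genome may share signal. Aifm1, a mitochondrial flavoprotein, followed with 0.57. Xiap, an inhibitor of caspases, read 9.17, 9.37, 9.61 and 9.27, and Birc2, of the same inhibitor family, read 8.34 at P1 and 9.30 on the P5-labelled array. The other probe set of Birc2 differed by 0.05 in that pair, so the size of the difference is uncertain. Genes of DNA fragmentation were split, with 2 of 4 past the filter higher and 2 lower and a median of -0.035. Bnip3, a mitochondrial protein of the wider family, differed by 0.90 in the same pair.

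Casp2, an initiator caspase outside the apoptosome, showed another pattern, reading 10.53, 10.07, 9.49 and 9.60. It was already 1.38-fold lower at P1 than at E17.5. On the P5-labelled array it was the only pathway gene past the filter at least 2-fold lower than at E17.5 (-1.04). That is 1 of 50, beside 5.50% of all genes, while 7 of 50 were at least 2-fold higher in that pair, beside 11.3%. Casp8, the initiator caspase of death receptors, read 8.14, 8.47, 8.71 and 8.90. Trp53, which encodes p53, is not analysed here. Of the survival kinases, Akt1 read 12.30 at P1 and 11.53 on the P5-labelled array, and both probe sets of Akt2 were lower there, by -0.53 and -0.57. In the p53 list, Ppp1r13b, which encodes ASPP1, a partner that steers p53 to death genes, differed by -0.78 and the p53-binding Trp53bp2 by 0.39. The death receptor Tnfrsf1a differed by 0.63 and Ngfr, the p75 neurotrophin receptor, by -0.51.

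Genes for the clearance of dying cells had the highest median of the 12 lists between E17.5 and P1, 0.54 over 9 of 11 genes past the filter, with 7 higher, beside 38.5% of all genes, 2 lower and none at least 2-fold apart. Glial markers stood higher at P1 too: all 10 astrocyte markers, 4 of them at least 2-fold, with a median of 0.84, and all 10 microglial markers past the filter, none at least 2-fold, with a median of 0.485. Mfge8, a bridge to the surface of dying cells, led with 0.80, and Mertk, an engulfment receptor, followed with 0.67. On the P5-labelled array 5 of 9 were at least 2-fold higher than at E17.5, beside 11.3% of all genes: Itgb5, Mertk, Axl, Gas6 and Dock1. The summed astrocyte and microglial signals, given above, were also higher on that array than at E17.5, and many clearance genes are expressed by glia. The part of these markers in either comparison was not tested.

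**Figure D4:**
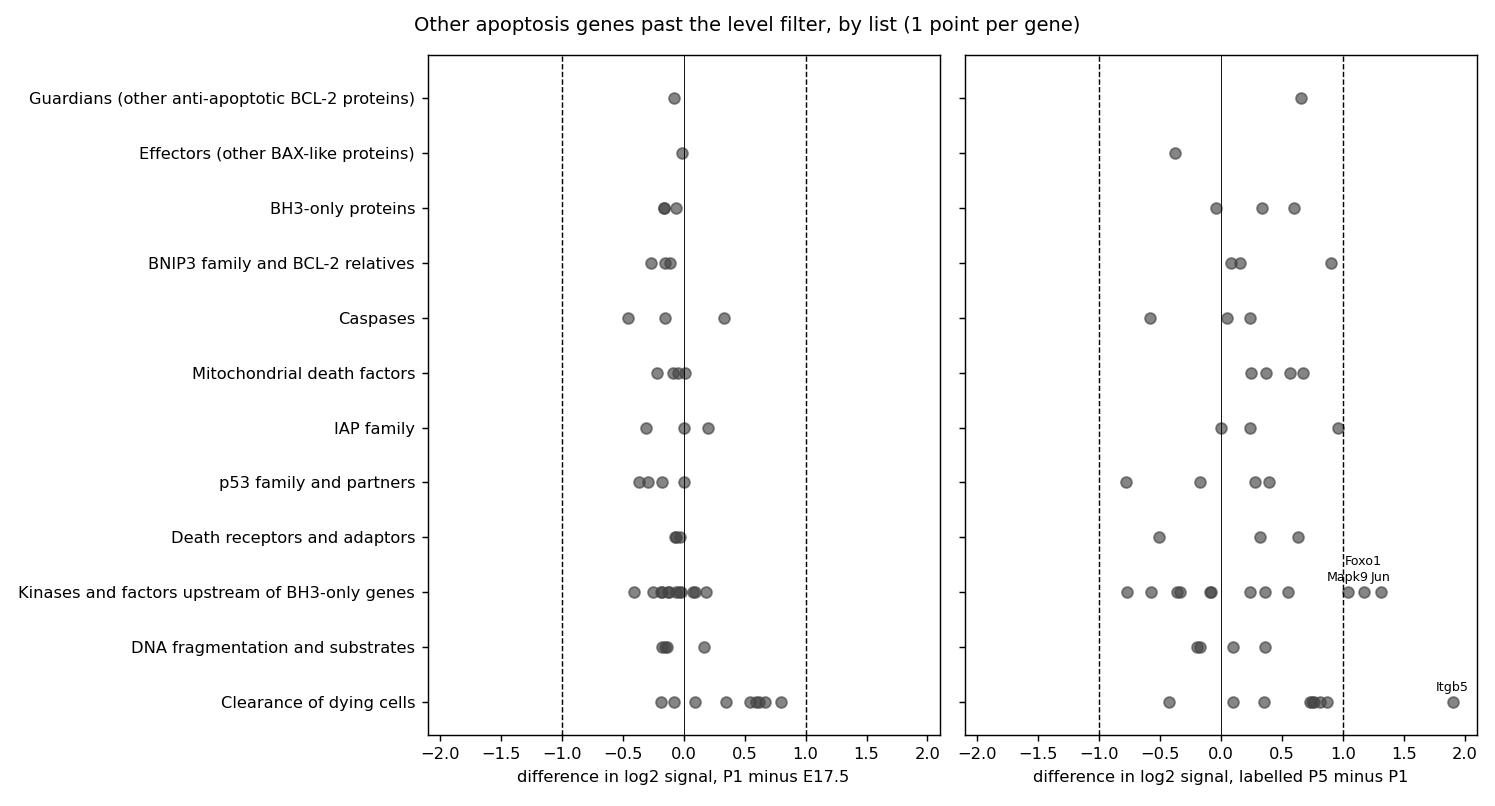
Difference in log2 signal (horizontal axes) of 50 other pathway genes past the level filter, 1 point per gene and 1 row per list, for P1 minus E17.5 (left) and labelled P5 minus P1 (right); dashed lines mark 2-fold. No point passes a dashed line on the left, and Itgb5, Jun, Foxo1 and Mapk9 do on the right.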

How the data were processed

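Total RNA of 4 tissue pools was measured on 1 array each. The authors deposited a log2 signal for each probe set, processed in Affymetrix Expression Console per the submitters' processing notes. How probes were summarised and arrays normalised, and the program's version, were not given in the sources used here. That the scale is log2 follows from the range of the values. Gene names came from the platform's table, which gave 1 symbol to 21789 of 35556 probe sets and several to 1621. Each gene took its probe set with the highest mean, and 10901 of 19938 genes reached 8.41 on at least 1 array. Differences between arrays were taken as deposited and counted at 1 on the log2 scale (2-fold), with Python 3.11.15 and pandas 2.3.3. The probe-set spread and the counting were tested on simulated data. The planted differences there lay well past the threshold, so counts near it were not tested. The number of arrays limits the precision. Members and lists were chosen with earlier results of these data known. Named were all members, list genes with the largest differences, a few chosen by name, and the 3 nearest profiles to members spanning 2-fold. Alternatives were probe set choice, filter, scaling, threshold and arrays left out.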

Additional observations from a re-analysis of the deposited data

How the results depend on the processing

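Under each of the other scalings, all 48 differences of single members moved by less than the probe-set standard deviation, by at most 0.05 with each array centred on its median and 0.08 with quantile normalisation. Centring turned the signs of Bcl2l1 and Mcl1 for labelled P5 against P1, to 0.02 and 0.01. The other filters could not move these differences, since every member passed them. At a 1.5-fold threshold the counts of members apart were 3 of 8 for labelled P5 against P1 (30.5% of all genes), 2 of 8 for labelled P5 against E17.5 (35.3%) and 3 of 8 for labelled P14 against labelled P5 (19.6%). Without the array labelled P5, the median range of members was 0.255 and the count spanning 2-fold was 0. Leaving out the array labelled P14, an alternative chosen after seeing the data, kept both results near their values. Each member had 1 probe set, so averaging probe sets changed nothing and taking a second probe set could not be run. No paired analysis was possible because each age had 1 array.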

Other observations

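Of the pathway genes below the level filter, 4 spanned at least 2-fold over the arrays, named here after their values were seen. Naip2, Naip5 and Naip6, neuronal apoptosis inhibitory proteins that also act as sensors in innate immunity, read 6.04, 5.41 and 5.60 at P1 and 7.42, 7.77 and 7.54 on the array labelled P5. On the array labelled P14 they read 6.38, 5.99 and 6.14. They are close copies of each other, so their separate values are uncertain. Casp12, a caspase linked to the endoplasmic reticulum, read 4.49, 4.69, 6.58 and 5.45 in the order of the labels. At such levels the sizes of the differences are inexact. The summed linear signal of 11 microglial markers was also highest on the array labelled P5, at 7294 against 4530 at P1. Of the 11, 7 were highest there, beside 39.7% of all genes past the filter, and Itgam, among these 7, passed it through that array alone. Sums of the myelin markers (62085 against 3856) and astrocyte markers (39960 against 19784) were higher there than at P1 too. The part of any of these markers in the values above was not tested.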
